A study of Mus musculus with 4 samples.

Results

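The IL-1 family cytokines and receptors were followed here through 10 genes of bleomycin (BLM)-treated mouse skin: the ligands Il1a, Il1b, Il18 and Il33, the soluble antagonists Il1rn and Il18bp, the decoy receptor Il1r2, and the receptor chains Il1r1, Il1rap and Il1rl1. They were picked by gene symbol from the 24441 genes of the deposited table, and all 10 were among the 13027 genes tested. Skin RNA came from 4 libraries, 2 of wild type (WT) mice and 2 of GSDMD KO mice, which lack gasdermin D, the protein that forms pores in the plasma membrane after cleavage by inflammatory caspases. All mice were labelled as female C57BL/6 animals at postnatal week 8, and both groups were given BLM, a cytotoxic antibiotic that causes skin fibrosis, under the skin every other day over 28 days. Skin without BLM was not analysed here, so every comparison is between genotypes within treated skin. The GSDMD deletion was not restricted to a cell type.

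IL-1α and IL-1β signal through the same receptor, made of IL-1R1 and the shared accessory chain IL-1RAP, which recruits MyD88 and activates NF-κB. IL-1Ra, encoded by Il1rn, occupies IL-1R1 without signalling, and IL-1R2 binds IL-1 but has no signalling domain. IL-18 acts on its own receptor and is held back by the binding protein encoded by Il18bp, while IL-33 acts on ST2, encoded by Il1rl1, again with IL-1RAP. In skin, IL-1α, IL-18 and IL-33 are known as products that keratinocytes hold in store, whereas Il1b is transcribed mainly by activated myeloid cells. Pro-IL-1β and pro-IL-18 are cut by caspase-1 and leave the cell through gasdermin D pores, steps that act on protein and are not read by RNA levels.

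The values are FPKM, fragment counts divided by transcript length and by library depth, so levels of different genes can be set side by side per length. The libraries summed to 448544 to 462251 FPKM, and the steps between low values gave an approximate depth that made 1 fragment on 1 kb worth 0.0578 to 0.078 FPKM. Gsdmd itself was lower in KO, with 14.0 and 18.2 FPKM in WT, against 3.53 and 2.26 in KO. Of 4 Y-linked genes, all were listed at 0 in 3 libraries and above 0 in KO replicate 2, where they summed to 1.78 FPKM, although all mice are labelled female. The KO libraries also differed from each other in marker RNA, with endothelial markers summing to 6.85 FPKM in replicate 2 against 78.9 in replicate 1. Fibroblast markers summed to 39.7 against 380 FPKM and adipocyte markers to 122 against 2110 FPKM. T cell and innate lymphoid cell markers summed to 41.6 against 34.6 FPKM, of which Gata3 alone made up 39.5 and 27.1. The other 5 of these markers were lower in replicate 2, such as Cd3e at 0.182 against 2.02 FPKM. The leading differences are therefore also given without KO replicate 2. Keratinocyte markers were high in every library, as the tissue label implies, and skeletal muscle markers summed to 16400 and 16600 FPKM in WT and to 10000 and 9650 FPKM in KO, with all 4 genes below both WT libraries in both KO libraries, as 20.5% of all genes tested were. The part of muscle content in the differences between genotypes was not tested. Nothing in the labels says how the 2 libraries of a group were separated beyond their number, and p-values measure only the spread between these libraries.

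Il1a and Il1b lie side by side on chromosome 2 of mm9, both on the minus strand, Il1a at chr2:129125346-129135708 and Il1b at chr2:129190314-129196875, with 54.6 kb between them. Il1rn lies on the same chromosome on the plus strand, at chr2:24192380-24207011. The 250 bases before their start sites are shown because the neighbours Il1a and Il1b differed in level and in how the genotypes compared, while Il1rn encodes their antagonist. The sequences are from the RefSeq promoter table made on GRCm38.p6, and each had a single exact match in mm9, at chr2:129135709-129135958 for Il1a, chr2:129196876-129197125 for Il1b and chr2:24192130-24192379 for Il1rn. They are written 5′ to 3′ on the strand of the gene, and capitals mark an AP-1 motif, TGANTCA.
Il1a: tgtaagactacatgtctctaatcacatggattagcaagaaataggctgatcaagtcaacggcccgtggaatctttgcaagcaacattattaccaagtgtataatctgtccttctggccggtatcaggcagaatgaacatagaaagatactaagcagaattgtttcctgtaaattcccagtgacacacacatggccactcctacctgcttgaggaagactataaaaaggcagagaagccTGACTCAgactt
Il1b: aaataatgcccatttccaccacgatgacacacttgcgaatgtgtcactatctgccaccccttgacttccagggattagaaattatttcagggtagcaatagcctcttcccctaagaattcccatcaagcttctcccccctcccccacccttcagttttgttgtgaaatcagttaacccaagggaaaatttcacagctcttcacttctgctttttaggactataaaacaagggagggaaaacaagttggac
Il1rn: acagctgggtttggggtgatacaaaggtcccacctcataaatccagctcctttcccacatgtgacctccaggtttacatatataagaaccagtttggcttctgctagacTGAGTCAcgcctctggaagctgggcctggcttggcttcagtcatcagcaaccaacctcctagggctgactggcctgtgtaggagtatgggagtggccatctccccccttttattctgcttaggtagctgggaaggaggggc
The AP-1 motif stood 12 to 6 bases before the Il1a start site as TGACTCA and 141 to 135 bases before the Il1rn start site shown as TGAGTCA. The table holds 2 other start sites of Il1rn, whose windows had no match to any of the motifs searched. The Il1b window held no match to this motif, to the NF-κB consensus or to the PU.1 motif GAGGAAGT, each searched on both strands. Such a match is a run of letters and not a measured site, and the absence of one says only that these letters are not in this window. Over all 32851 promoters of the same length, 6.75% held the AP-1 motif, 3.9% the NF-κB consensus and 2.44% the PU.1 motif. All 10 members had at least 1 promoter in the table, 15 windows in all, of which 2 held AP-1, 1 held the NF-κB consensus (a second start site of Il1r1) and 0 held PU.1.

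Il1b, the inflammatory ligand made mainly by myeloid cells, was the member that differed most between genotypes. It had 35.7 and 59.8 FPKM in WT, against 2.49 and 4.65 in KO. Both KO libraries were thus far below both WT libraries, at 5.22% and 9.74% of the WT mean. The means were 47.7 ± 17.0 FPKM (SD, n = 2) in WT and 3.57 ± 1.53 FPKM (SD, n = 2) in KO, a 13.4-fold difference. On the log2(FPKM + 1) scale the difference between KO and WT was -3.41 (SE 0.39), with a limma p of 0.000278 and a Benjamini-Hochberg adjusted p of 0.248 over all genes tested. Il1b therefore did not pass the threshold, which asked for an adjusted p under 0.05 together with a log2 fold change beyond 1 in either direction. It did pass without KO replicate 1 (log2 fold change -3.06, limma adjusted p = 0.003) and without KO replicate 2 (-3.76, limma adjusted p = 0.0111), but not without WT replicate 1 (-3.77, limma adjusted p = 0.471) or WT replicate 2 (-3.05, limma adjusted p = 0.941). With a single library left in a group, these fits take its spread from the other group. The estimated number of fragments behind Il1b was 837.6 and 1166.6 in WT and 46.5 and 80.9 in KO, so counting noise is small beside the difference. Gm14047 overlaps Il1b on the opposite strand, and as no source states whether strand was used in counting, reads of the pair cannot be told apart.

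The other ligands did not share this pattern. Il1a, the neighbour of Il1b and a keratinocyte alarmin, had 4.52 and 2.40 FPKM in WT, against 6.21 and 2.75 in KO. The groups overlapped, and the log2 difference of 0.26 (SE 0.43, limma adjusted p = 0.753) was -0.21 without KO replicate 1 and -0.09 without WT replicate 2. Gm14023 overlaps Il1a on the opposite strand, with the same limit. Il18, which encodes the other cytokine cut by caspase-1, had 25.4 and 12.1 FPKM in WT, against 41.4 and 34.5 in KO. Both KO libraries were above both WT libraries, the opposite of the decrease in KO that the study reported by RT-qPCR of treated skin. The means, 18.7 ± 9.36 and 38.0 ± 4.91 FPKM (SD, n = 2 each), were 2.03-fold apart. The log2 difference was 1.06 (SE 0.39), with an unadjusted p of 0.0418 and an adjusted p of 0.28 by limma and Benjamini-Hochberg, and it came to 0.95 when libraries were scaled to a common upper quartile. Without WT replicate 2, the library lowest in Il18, it was 0.56 (limma adjusted p = 0.941). The table's locus of Il18 begins upstream of the annotated mm9 gene, so the length behind its FPKM is uncertain, which touches its level against other genes but not the comparison between genotypes. Il33, a nuclear alarmin, had 12.1 and 5.53 FPKM in WT, against 16.4 and 13.3 in KO. In KO, the libraries were again above both WT libraries, though KO replicate 2 passed WT replicate 1 only slightly, and the log2 difference of 0.77 (SE 0.40, limma adjusted p = 0.361) was 0.27 without WT replicate 2.

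**Figure D1:**
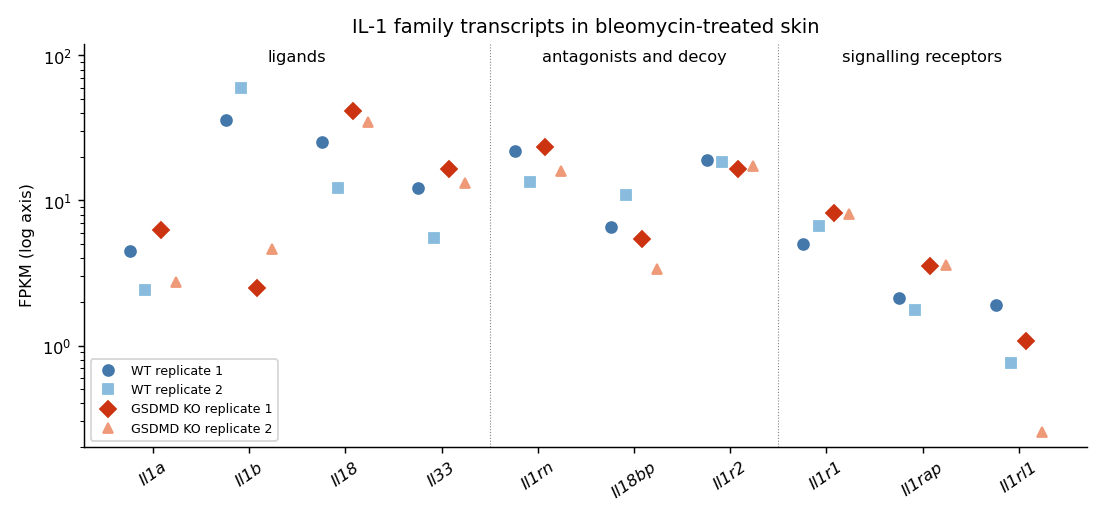
FPKM of the 10 IL-1 family members in each of the 4 libraries, on a log axis, with 1 point per library. Il1b stands at 35.7 and 59.8 FPKM in WT, against 2.49 and 4.65 in KO, while no other member has its groups so far apart.

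Of the antagonists and the decoy receptor, Il18bp had the largest difference. Il1rn, which encodes IL-1Ra, had 22.0 and 13.5 FPKM in WT, against 23.2 and 16 in KO. The groups overlapped, with a log2 difference of 0.15 (SE 0.34, limma adjusted p = 0.825) that was -0.11 without KO replicate 1 and -0.18 without WT replicate 2. Il18bp, which neutralises IL-18, had 6.53 and 10.9 FPKM in WT, against 5.44 and 3.37 in KO. Its KO libraries lay under both WT libraries, and the means, 8.70 ± 3.06 and 4.41 ± 1.46 FPKM (SD, n = 2 each), were 1.97-fold apart. The log2 difference was -0.83 (SE 0.35, limma adjusted p = 0.309), and it was -0.51 without WT replicate 2 and -0.55 without KO replicate 2. Il1r2, the decoy receptor, had 19 and 18.5 FPKM in WT, against 16.5 and 17.4 in KO. Its KO libraries also sat below its WT libraries, but by so little that the means, 18.7 ± 0.365 and 17.0 ± 0.683 FPKM, differed 1.10-fold (log2 difference -0.14, SE 0.22, limma adjusted p = 0.751).

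Among the signalling chains, Il1rap was the most even within groups. This shared accessory chain had 2.11 and 1.77 FPKM in WT, against 3.53 and 3.57 in KO. The groups did not overlap, with KO the higher, and the means of 1.94 ± 0.241 and 3.55 ± 0.0286 FPKM (SD, n = 2 each) were 1.83-fold apart. The log2 difference was 0.63 (SE 0.24), with an unadjusted p of 0.044 and an adjusted p of 0.284 by limma and Benjamini-Hochberg, so neither the fold nor the adjusted p reached the threshold. RP24-345H5.2 overlaps Il1rap on the opposite strand, and a gene-level value does not separate the membrane form of the chain from its soluble form. Il1r1, the signalling receptor for IL-1α and IL-1β, had 5.01 and 6.72 FPKM in WT, against 8.23 and 8.12 in KO, both KO libraries being above both WT libraries (log2 difference 0.43, SE 0.26, limma adjusted p = 0.408, and 0.25 without WT replicate 1). Il1rl1, which encodes the IL-33 receptor ST2 in a membrane and a soluble form, had 1.91 and 0.760 FPKM in WT, against 1.08 and 0.255 in KO. Its groups overlapped (log2 difference -0.49, SE 0.40, limma adjusted p = 0.523). The difference was -0.12 without WT replicate 1 or without KO replicate 2, -0.85 without WT replicate 2 or without KO replicate 1, and -1.02 with a pseudocount of 0.1, and only about 17.3 fragments stood behind the value of KO replicate 2. Mast cells, which carry ST2, had markers summing to 68.8 and 72.7 FPKM in WT and to 103 and 11.7 FPKM in KO. Il1rl1 shared their order between the KO libraries, as did 6245 of all 13027 genes tested, but not their order between the WT libraries. The part of mast cells was not tested.

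Counted over the family, 0 of 10 members passed the threshold in limma, as did 0 of all 13027 genes tested (0%), while 2230 genes had an unadjusted p under 0.05. At an unadjusted p under 0.05 and the same fold, Il1b was lower in KO, where 4.14% of all genes tested were, and Il18 was higher, where 6.16% were. The KO libraries lay under both WT libraries for 3 of 10 members (Il1b, Il18bp and Il1r2), against 20.5% of all genes tested. Both were above for 4 of 10 (Il18, Il33, Il1r1 and Il1rap), against 35.3%. These shares of members are near the background, so the counts alone set the family apart from no other genes. With 2 libraries against 2, the smallest two-sided p that exact permutation of the libraries allows is 0.333. Without KO replicate 2, the library that stood apart, the log2 difference was -3.76 for Il1b, -0.55 for Il18bp, 1.19 for Il18, 0.92 for Il33 and 0.63 for Il1rap. The median log2 difference was 0.21 over the members and 0.11 over all genes tested, and that of the members was -0.12 without WT replicate 2 and -0.1 without KO replicate 1. In this bulk tissue, fewer cells of a type and less RNA per cell cannot be told apart.

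**Figure D2:**
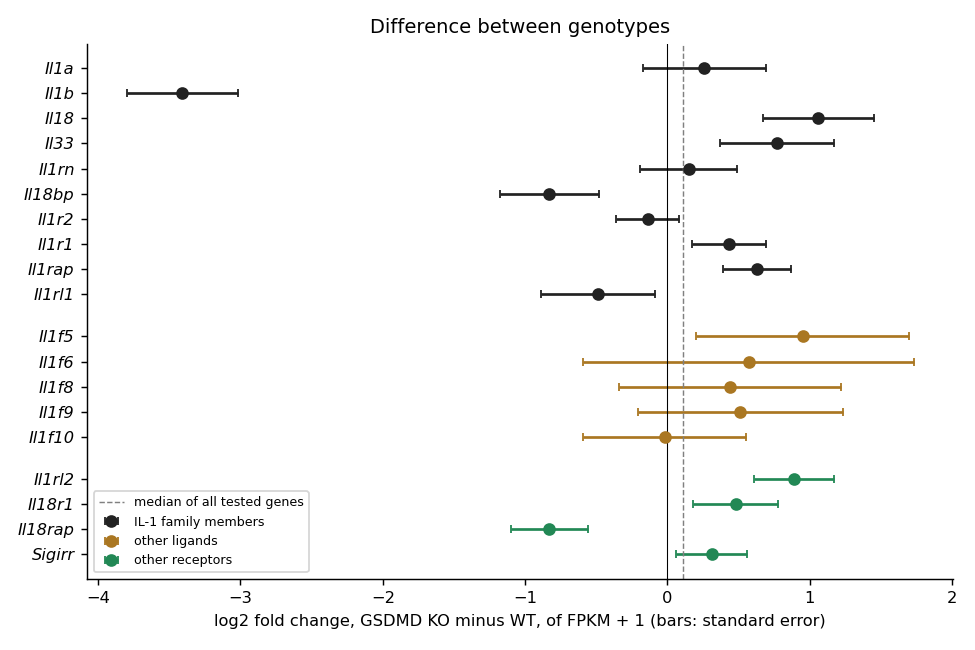
Difference in log2(FPKM + 1) between KO and WT for the 10 members, 5 other ligands and 4 other receptors, with the SE of the limma fit as bars, 0 as a solid line and the median of all genes tested as a dashed line. Il1b stands at -3.41, Il18 at 1.06, and the other members lie between -0.83 and 0.77.

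The order of the members by level was not the same in the 2 genotypes. In WT, Il1b came first with a mean of 47.7 FPKM and was above the next member in both libraries. Il18, Il1r2 and Il1rn followed at 18.7, 18.7 and 17.8 FPKM and did not differ beyond their spread. Below them came Il33 and Il18bp at 8.81 and 8.70 FPKM, Il1r1 at 5.87 FPKM, Il1a at 3.46 FPKM, and Il1rap and Il1rl1 at 1.94 and 1.33 FPKM. Of these, Il33 overlapped Il18bp, Il18bp overlapped Il1r1 and Il1rap overlapped Il1rl1. In KO, Il18 came first with 38.0 FPKM, above Il1rn (19.6 FPKM) and Il1r2 (17.0 FPKM), which overlapped each other. Il33 at 14.9 FPKM and Il1r1 at 8.18 FPKM each stood apart from their neighbours in the order. Il1b was in place 8 at 3.57 FPKM and could not be separated from Il1a (4.48 FPKM), Il18bp (4.41 FPKM) and Il1rap (3.55 FPKM). Il1rl1 was last in both genotypes.

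Ligands were also set against their antagonists within each library, which removes any common factor of library scale. For each Il1rn FPKM there were 1.62 and 4.42 FPKM of Il1b in the WT libraries and 0.107 and 0.291 in the KO libraries. Agonist message thus exceeded IL-1Ra message in both WT libraries and was below it in both KO libraries, a log2 difference of -3.92. Il1b to Il1a was 7.90 and 25.0 in WT and 0.401 and 1.69 in KO (log2 difference -4.09), with KO replicate 2 still holding more Il1b than Il1a. Il18 to Il18bp went the other way, at 3.88 and 1.12 in WT and 7.62 and 10.2 in KO (log2 difference 2.08). Its KO libraries were both above its WT libraries, with Il18 and Il18bp each adding to the gap. Il33 to its receptor gene Il1rl1 was 6.33 and 7.27 in WT and 15.2 and 52.4 in KO, where the highest value rests on the few Il1rl1 fragments of KO replicate 2. Il1r1 to its decoy Il1r2 was 0.264 and 0.364 in WT and 0.5 and 0.466 in KO, so the decoy had the higher level in every library. Each of these 5 ratios separated the groups, and the exact two-sided permutation p was 0.333 for each, the smallest the design allows.

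**Figure D3:**
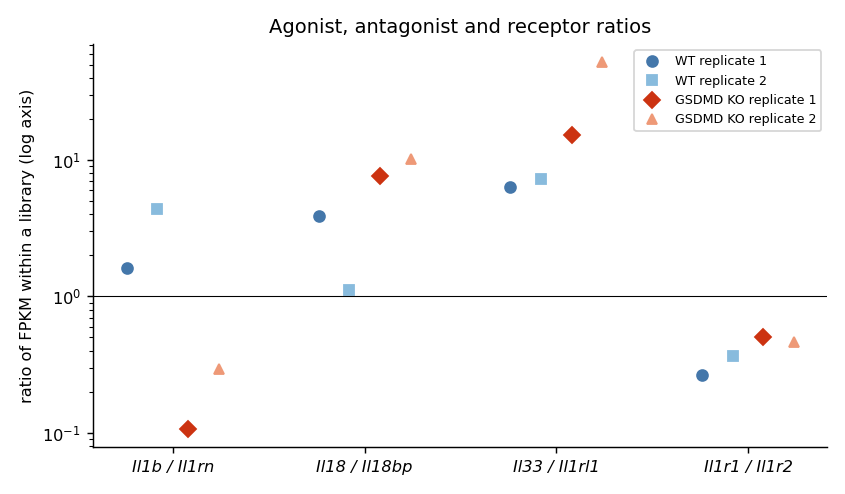
Ratios of FPKM between pairs of IL-1 family genes in each library, on a log axis, with equal levels at 1. Il1b to Il1rn lies at 1.62 and 4.42 in WT and at 0.107 and 0.291 in KO, and Il18 to Il18bp lies at 3.88 and 1.12 in WT and at 7.62 and 10.2 in KO.

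Myeloid markers were lower in the KO libraries together with Il1b. Of 9 macrophage markers, 9 had a negative log2 difference (median -2.6, and -1.25 without KO replicate 2), 8 were below WT in both KO libraries (20.5% of all genes tested), and 0 passed the limma threshold. Their sum was 1870 to 1930 FPKM in WT, 761 FPKM in KO replicate 1 and 81.7 FPKM in KO replicate 2, with none of the 9 at 0. Of 9 neutrophil markers, 5 were tested, all 5 had negative differences and 0 passed the threshold. In 4 of the 5 the groups were separated with KO the lower (20.5% of all genes tested). These were S100a8, with 440 and 287 FPKM in WT, against 151 and 107 in KO, and S100a9, with 312 and 322, against 153 and 41.0. Csf3r had 3.96 and 7.18 FPKM in WT, against 1.91 and 0.150 in KO, and Retnlg 5.36 and 7.30, against 1.88 and 2.24. The sum of the 9 was 626 to 764 FPKM in WT and 151 to 310 FPKM in KO, mostly from S100a8 and S100a9. The defining genes Ly6g and Mpo, named after their values were seen, were listed at 0 in both KO libraries. In WT they reached only 0.238 and 0.0278 FPKM. Both were thus close to or under the level of 3 fragments on 1 kb in every library. The groups overlapped for Elane, with 0.319 and 0.372 FPKM in WT, against 0.599 and 0.216 in KO, and for Cxcr2, with 1.73 and 1.92 FPKM in WT, against 1.76 and 0.590 in KO. Between the KO libraries, however, Il1b and the macrophage markers stood in opposite order. Il1b was 1.87-fold higher in KO replicate 2, whereas the integrin gene Itgam was 11.5-fold higher in KO replicate 1 (6.30 against 0.550 FPKM) and the lysosomal gene Cd68 4.93-fold higher (38.5 against 7.80 FPKM). As a result Il1b to Itgam, at 0.952 and 1.67 in WT, was 0.396 in KO replicate 1 and 8.46 in KO replicate 2. Il1b to Cd68 was 0.358 and 0.494 in WT and 0.0647 and 0.596 in KO. Both ratios overlapped between the groups (exact two-sided permutation p = 1.0 each), so Il1b per macrophage marker was below WT in KO replicate 1 and above it in KO replicate 2. The part of cell content in the Il1b difference was not tested further.

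**Figure D4:**
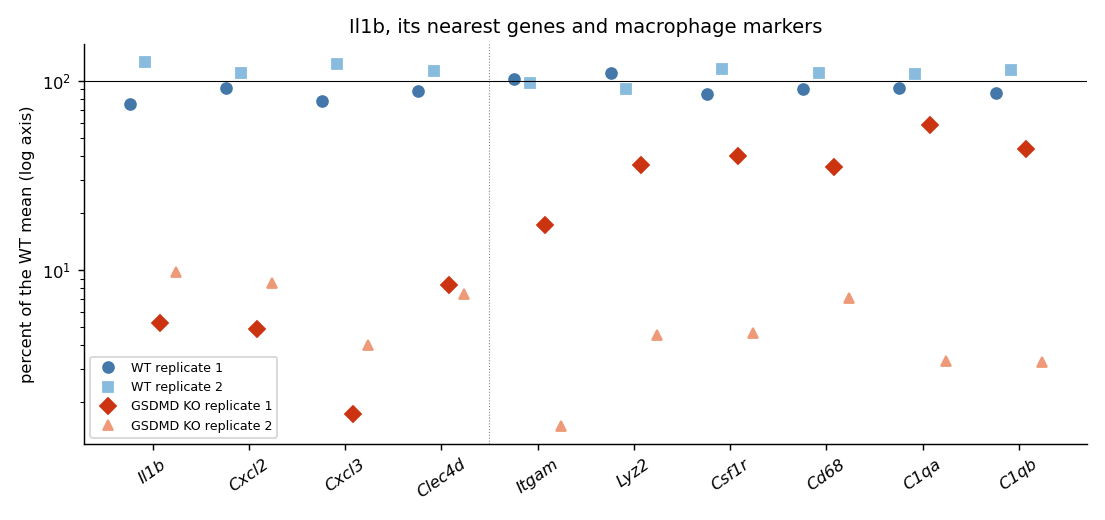
Level in each library as a percentage of the WT mean, on a log axis, for Il1b, the chemokine and lectin genes nearest to it and macrophage markers. Il1b lies at 5.22% in KO replicate 1 and 9.74% in KO replicate 2, while the macrophage markers are higher in replicate 1 than in replicate 2.

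The genes whose pattern over the 4 libraries lay nearest to Il1b were Cxcl2, Clec4d and Cxcl3, at Euclidean distances of 0.36, 0.67 and 0.76 between centred log2(FPKM + 1) values. Cxcl2, a chemokine that attracts neutrophils, had 38.8 and 46.6 FPKM in WT, against 2.09 and 3.63 in KO. Cxcl3, a related chemokine, had 27.5 and 42.7 FPKM in WT, against 0.609 and 1.41 in KO, and Clec4d, a C-type lectin of myeloid cells, had 25.8 and 33.1 FPKM in WT, against 2.46 and 2.19 in KO. Both chemokines had the higher KO value in replicate 2, like Il1b and unlike the macrophage markers. They were picked for likeness to Il1b in these same libraries, so this shared order is not independent evidence. Of all 13027 genes tested, 6245 had the higher KO value in replicate 1. Nearest to Il1rap, which among the 4 receptor members had the largest absolute difference on this scale, were Smoc2 (distance 0.04), Nfia (0.05) and Capn15 (0.06). Smoc2, which encodes a matricellular protein, had 17.4 and 15.7 FPKM in WT, against 26.0 and 25.5 in KO. With 4 libraries many genes lie close to a pattern of 2 flat groups, and likeness says nothing of shared control.

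The ligands and receptors of the family outside the 10 members are mostly epidermal or lymphoid. The IL-36 genes, which encode epithelial cytokines and their antagonist and are listed under older symbols, and Il1f10, which encodes IL-38, overlapped between the genotypes. Il1f6 (IL-36α) had 14.3 and 4.03 FPKM in WT, against 39.3 and 3.20 in KO, and the antagonist Il1f5 had 32.2 and 11.6 FPKM in WT, against 73.1 and 20.0 in KO. In all 5 of these genes (Il1f5, Il1f6, Il1f8, Il1f9 and Il1f10) the groups overlapped and replicate 1 was above replicate 2 in both genotypes, an order found in 23.7% of all genes tested and in 5 of 10 members. Their median log2 difference of 0.51 became -0.63 without KO replicate 1 and 1.51 without KO replicate 2. Il1rl2, the IL-36 receptor, had 3.08 and 1.94 FPKM in WT, against 5.25 and 5.62 in KO (log2 difference 0.89, SE 0.28, limma adjusted p = 0.254). Il18rap, the accessory chain of the IL-18 receptor, had 1.12 and 1.71 FPKM in WT, against 0.472 and 0.232 in KO (log2 difference -0.83, SE 0.27, limma adjusted p = 0.258), resting on about 14.5 to 120.4 fragments. Its partner Il18r1 was on the other side, with 1.33 and 0.687 FPKM in WT, against 1.41 and 2.18 in KO, as was the inhibitory receptor Sigirr, with 2.99 and 3.94 FPKM in WT, against 4.48 and 4.53 in KO. Of the 6 further receptors 4 were tested, 1 below and 3 above WT in both KO libraries (20.5% and 35.3% of all genes tested), while Il1rapl1 was listed at 0 throughout and Il1rapl2 reached at most 0.0201 FPKM. A row of 6 receptor genes on chromosome 1 of mm9 runs Il1r2, Il1r1, Il1rl2, Il1rl1, Il18r1 and Il18rap. The log2 difference was negative for Il1r2, Il1rl1 and Il18rap and positive for the 3 genes between them, with only 0.1 kb between Il1rl1 and Il18r1.

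Basal keratinocyte markers were higher in both KO libraries, as were Il18 and Il33 but not Il1a, whose groups overlapped. The basal keratins Krt5 and Krt14 had 764 and 765 FPKM and 1290 and 1210 FPKM in WT, against 1730 and 1660 FPKM and 2690 and 2740 FPKM in KO. Il18 to Krt5 was 0.0332 and 0.0158 in WT and 0.0240 and 0.0207 in KO, and Il33 to Krt5 was 0.0158 and 0.00722 in WT and 0.00951 and 0.00802 in KO. Both ratios overlapped between the groups (exact two-sided permutation p = 1.0 each), whereas Il18 and Il33 themselves did not. Il1rap to Krt5, at 0.00277 and 0.00232 in WT and 0.00205 and 0.00215 in KO, was lower in KO (exact two-sided permutation p = 0.333). The suprabasal keratins Krt1 and Krt10 instead had the order of the IL-36 genes, with 1670 FPKM each in KO replicate 1 and 280 and 266 FPKM in KO replicate 2. The sum of the 7 keratinocyte markers was 3550 to 4960 FPKM in WT and 5170 to 10700 FPKM in KO, none at 0, and its part in the differences of Il18, Il33 and Il1rap was not tested beyond these ratios. Hair follicle markers summed to 8.62 and 0.764 FPKM in WT and to 328 and 8.55 FPKM in KO. All 6 that were tested had a positive log2 difference, with a median of 2.78 that was 0.44 without KO replicate 1, and their part was not tested.

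**Figure D5:**
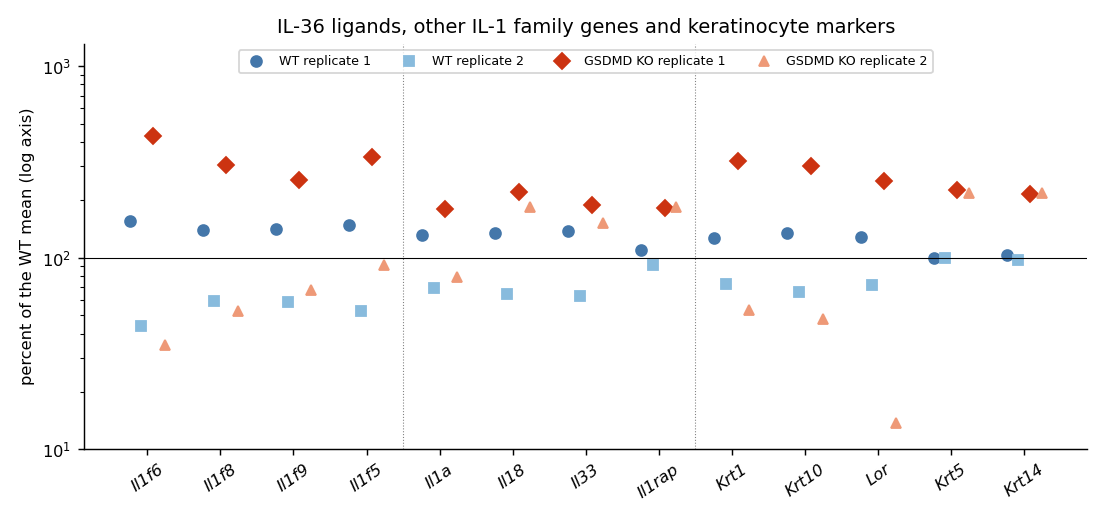
Level in each library as a percentage of the WT mean, on a log axis, for the IL-36 genes Il1f5, Il1f6, Il1f8 and Il1f9, the members Il1a, Il18, Il33 and Il1rap, and keratinocyte markers. Il18, Il33 and Il1rap lie above 100% in both KO libraries like Krt5 and Krt14, whereas the IL-36 genes, Krt1, Krt10 and Lor are above it in KO replicate 1 and below it in KO replicate 2.

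Genes of the signalling chain downstream of the receptors lay on both sides. Of 17 adaptor, kinase and NF-κB genes, all tested, 0 passed the threshold, 7 had a negative and 10 a positive log2 difference, and the median was 0.1. Myd88, the adaptor shared by these receptors, had 21.4 and 27.5 FPKM in WT, against 23.8 and 21.0 in KO, and the NF-κB subunit gene Rela had 24.6 and 26.5 FPKM in WT, against 24.1 and 19.8 in KO. The KO libraries lay below both WT libraries in 2 of the 17 and above both in 7, where 20.5% and 35.3% of all genes tested did. Peli1, a ubiquitin ligase of this pathway named after its values were seen, was the single gene of the 17 to pass the unadjusted limits, which 6.16% of all genes tested passed on the higher side, with 10.5 and 5.67 FPKM in WT, against 15.8 and 19 in KO (limma adjusted p = 0.258).

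Genes that process IL-1β and IL-18 lay on both sides or overlapped. Of 9 such genes 8 were tested, 5 with a negative and 3 with a positive log2 difference, and 0 passed the threshold. The 5 include Gsdmd, whose direction the knockout itself sets. Pycard, the inflammasome adaptor, had 30.6 and 32.0 FPKM in WT, against 48.0 and 58.2 in KO, and Casp1, the protease that cuts both precursors, had 11.1 and 6.06 FPKM in WT, against 12.1 and 17.5 in KO. In both, the KO libraries were above both WT libraries (limma adjusted p = 0.258 for Pycard and 0.347 for Casp1). The groups overlapped for the caspase genes Casp8, with 11.9 and 13.5 FPKM in WT, against 10.5 and 16.8 in KO, and Casp4, with 11 and 11.4 FPKM in WT, against 7.77 and 11.3 in KO. The sensor genes Nlrp3 and Mefv, named after their values were seen, were on the other side with Gsdmd. Nlrp3 had 2.33 and 2.87 FPKM in WT, against 0.476 and 0.247 in KO, a log2 difference of -1.40 (SE 0.25, limma adjusted p = 0.248). Mefv had 2.05 and 4.66 FPKM in WT, against 0.481 and 0.176 in KO, a log2 difference of -1.65 (SE 0.38, limma adjusted p = 0.248). Both had the lower KO value in replicate 2, whereas the sensor gene Aim2, with 2.90 and 2.59 FPKM in WT, against 1.45 and 2.07 in KO, had the higher one there, like Il1b.

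Genes that IL-1 is known to induce differed in both directions, and 0 passed the threshold. Of 16 listed genes 13 were tested, 11 with a negative and 2 with a positive log2 difference, where 5392 of all 13027 genes tested were negative. The groups were separated with KO the lower in 6 of the 13 (20.5% of all genes tested) and with KO the higher in 2 (35.3%). The median of -0.89 was -1.63 without KO replicate 1, -1.37 without WT replicate 1, -0.75 without WT replicate 2 and -0.67 without KO replicate 2. The study itself picked several of them on these libraries, so their direction is not independent evidence. Ccl2, a monocyte chemokine, had 82.6 and 59.2 FPKM in WT, against 21.7 and 20.7 in KO, and Saa3, an acute-phase gene, had 687 and 4600 FPKM in WT, against 375 and 23.4 in KO. Ccl2 was even within groups, whereas Saa3 spread widely in both. Nfkbia, a direct NF-κB target, had 49.8 and 76.7 FPKM in WT, against 51.2 and 46.8 in KO, and the groups overlapped. The 2 positive genes were Zc3h12a, an RNase that limits cytokine messages, with 18.1 and 16.4 FPKM in WT, against 26.6 and 19.4 in KO, and Nfkbiz, an NF-κB cofactor of keratinocytes named after its values were seen, with 8.81 and 8.98 FPKM in WT, against 15.3 and 30.0 in KO. Of 6 cytokines downstream of the IL-33 and IL-18 receptors only Areg, a growth factor, was tested, with 1.15 and 1.17 FPKM in WT, against 2.35 and 1.19 in KO. Il9 was listed at 0 in all 4 libraries and Ifng in all but KO replicate 1, where it stood at 0.139 FPKM, under what 3 fragments on 1 kb would give.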

How the data were processed

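RNA-seq values of skin from 2 WT and 2 GSDMD KO mice were read from a table of 24441 genes in which the authors deposited FPKM values, although it is named as counts: 99.993% of the values above 0 were not whole. Per the labels' processing notes, HISAT2 2.0.1, StringTie 2.0.6 and the mm9 build were used, so division by transcript length and depth is already in the values and a count test could not be run. The design named limma for this reason. Groups and replicate numbers were taken from the sample labels.

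Values were transformed to log2(FPKM + 1), and genes reaching 1 FPKM in 2 or more libraries, 13027 in all, entered a limma 3.58.1 fit in R 4.3.3 that held genotype alone and allowed a mean-variance trend. This scale understates the change of low genes. Benjamini-Hochberg adjustment ran over all genes tested. A call needed an adjusted p under 0.05 together with a log2 fold change beyond 1 in either direction. Single ratios were compared by exact two-sided permutation tests. The fit was tested on simulated data. Tables were made with Python 3.11.15 and pandas 2.3.3.

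Depth was read from the spacing of low values in 2710 genes annotated with a lone transcript of 2 kb or more, and 3 fragments on 1 kb correspond to 0.1734 to 0.234 FPKM. Fragment numbers are approximate and carry no interval. Of 20310 genes found by symbol in the mm9 GENCODE annotation, 99.2% overlapped it in position. Promoter sequences came from the RefSeq table on GRCm38.p6 and were placed in mm9 by exact match.

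The members and the gene lists were chosen with earlier results of these data known. Named genes were Gsdmd, the members, up to 6 genes per list by mean FPKM, and the 3 genes nearest to Il1b and to Il1rap. Others are marked as named after their values were seen. Alternatives covered pseudocounts, filters, scalings, a fit without the trend, the replicate number as a block and leaving out each library.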

Additional observations from a re-analysis of the deposited data

How the results depend on the processing

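Il1b stayed lower in KO under all 14 alternatives, with log2 differences from -3.77 to -3.05, and Il18, Il33 and Il1r1 stayed higher under the same 14, as did Il1rap under the 13 that give it a value. Il1a and Il1rn had no fixed sign: leaving out 1 library gave -0.21 to 0.74 for Il1a and -0.18 to 0.48 for Il1rn. The number of members with an unadjusted p under 0.05 and a log2 fold change beyond 1 in either direction was 2, and it was 1 without the filter on low values, with upper-quartile scaling, with median-ratio scaling and with the crossed block, and 1 to 3 when 1 library was left out (1 without WT replicate 2, 3 without WT replicate 1). The members' median of 0.21 was 0.1 with upper-quartile scaling and 0.1 with median-ratio scaling, which also moved the median of all genes from 0.11 to 0.01, and -0.12 to 0.42 when 1 library was left out. Over all genes the count at the same unadjusted limits was 1341, and 508 to 3017 when 1 library was left out. The count of calls was 0, but 2058 without KO replicate 1 and 43 without KO replicate 2, a range of 0 to 2058. The cause was not tested. The correlation of deviations between same-numbered libraries was -0.20 over 13027 genes, and the labels tie no number to a litter or batch, so no pairing was assumed. With the replicate block 0 genes were called, and 1593 genes and 2 members passed the unadjusted limits. The crossed block, chosen after seeing the data, gave 0 calls, 1500 genes and 1 member. Il1a, Il1rap and Il1rl1 have no value under the filter at 5 FPKM. With 2 libraries a group and KO values near 2 to 5 FPKM for Il1b, depth limits Il1rl1 and Il18rap, which rest on few fragments in KO replicate 2.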
